A study of Mus musculus with 4 samples.

Results

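Potassium channel genes, the genes with the symbol prefix Kcn, were compared between arrays titled ketamine and arrays titled saline from the mouse prefrontal cortex series. The members were all genes whose symbol begins with Kcn, taken from array rows that the platform annotation pairs with exactly 1 symbol, and each gene was represented by its row with the highest mean over the 4 arrays. This gave 92 genes from 95 rows, out of 19938 genes on 21789 rows with 1 symbol. They fall into 16 classes, with 62 pore-forming subunits and 26 subunits that modify or accompany a pore. The last of the 16 classes collects 4 genes that carry the prefix without belonging to a subfamily.

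Potassium channels let potassium ions leave or enter a cell along their gradient. Voltage-gated (Kv) channels end the action potential and set how fast a neuron can fire, inward rectifiers (Kir) and pore channels of the K2P class hold the resting potential, and calcium- or sodium-activated channels follow activity and produce afterhyperpolarizations. Neurons of different brain regions carry different sets of these genes, and glia and choroid plexus have characteristic inward rectifiers.

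ICR mice, 1 month old at the start, were injected intraperitoneally each day for 3 months with ketamine at 30 mg/kg or with saline. Ketamine is an NMDA receptor blocker, and this dose is sub-anaesthetic. By the methods, the mice were tested in a water maze before they were killed. RNA, which the methods assign to the prefrontal cortex, was measured on 4 whole-transcript Affymetrix arrays for the mouse, with 2 arrays per group drawn at random from larger groups. The titles call 2 arrays saline and 2 ketamine, but the source field of the labels names the opposite treatment for each of them. The labels also give female mice where the methods give male mice.

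Groups are named here by title, and every difference is the mean of the 2 arrays titled ketamine minus the mean of the 2 arrays titled saline on the log2 scale. By the source field each direction would be the reverse. Values listed for a gene follow the order titled saline 1, titled saline 2, titled ketamine 1 and titled ketamine 2, in log2 units of the deposited expression summary. Values of different rows come from different probes and are not set against each other. A gene was called higher or lower where its limma p-value, adjusted by Benjamini-Hochberg over all 21789 rows, was under 0.05. With 2 arrays against 2, an exact two-sided permutation test cannot go below p = 0.333, so the limma p-values rest on a spread shared across rows and measure only the spread between these samples. As a level at which no expression is expected in brain, 1035 olfactory receptor rows had 95th percentiles from 4.20 to 4.56 on the 4 arrays. Where both arrays of a group lay under this level, the measured difference does not give the size of the change. The brighter group is then set against the level of each dim array, and the fold is written as at least that value.

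The 2 arrays of a group correlated at 0.995 (titled saline) and 0.996 (titled ketamine) over all tested rows, and arrays of different groups at 0.959 to 0.969. Markers of cell types, from lists compiled for this comparison, differed widely between the groups. The lists were chosen with earlier results of these data known, so their counts describe these arrays and are no independent evidence. Tissue make-up and treatment cannot be told apart in this design. All 12 measured markers of cerebellar granule cells were called higher, with list means of 5.80 and 5.26 on the titled saline arrays against 9.15 and 9.02 on the titled ketamine arrays, as were all 9 measured Purkinje cell markers (7.11 and 6.71 against 9.80 and 9.68). Of 12 measured markers of forebrain projection neurons 11 were called lower (7.99 and 8.03 against 5.28 and 5.29), and Tbr1, Emx2 and Neurod6 of that list lay under the olfactory receptor level on both arrays titled ketamine. All 10 measured striatal markers were called lower (8.52 and 8.49 against 6.59 and 6.62). The part of these shifts in the potassium channel differences was not tested, and in bulk tissue fewer cells of a type and less RNA per cell cannot be told apart.

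The largest differences in either direction among the potassium channel genes exceeded the spread between arrays many times over. Of the 92 genes, 25 were called higher (27.2%) and 28 lower (30.4%), while 39 did not pass the test. Over all rows tested, 23.4% were called higher and 9.71% lower. On the deposited scaling the share of potassium channel genes called higher was near that of all rows, and the share called lower was above it. With quantile normalization both shares were above those of all rows (23.9% against 13.4% higher, 37.0% against 18.6% lower), and with median centring too (23.9% against 14.7% higher, 34.8% against 14.7% lower). Among the brighter rows, those whose mean reached the median of all rows, 34.8% were called higher and 14.2% lower, and of the 54 potassium channel genes there 19 were higher (35.2%) and 20 lower (37.0%).

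By a 1.3-fold difference, 27 genes were higher and 28 lower, beside 5286 (24.3%) and 2151 (9.87%) of all rows. The study also used this limit, but the gene list it reported past it was far shorter than these row counts. The cause of that mismatch was not tested. The values of the groups did not overlap for 38 genes with the titled ketamine arrays above (48.4% of all rows) and 35 with those arrays below (21.5% of all rows), and they overlapped for 19 genes. The median difference over the 92 genes was 0.039, beside 0.13 over all rows, and the median size of the difference without its sign was 0.576, beside 0.256. The balance of directions over all rows depended on the scaling. The deposited values gave 5109 rows higher and 2115 lower, quantile normalization 2923 higher and 4049 lower, and centring of each array on its median 3210 higher and 3213 lower. For the potassium channel genes the corresponding counts were 25 and 28, 22 and 34, and 22 and 32. Of the 53 called genes 50 kept their call under both scalings, and all 53 kept their sign. Kcna2, Kcnk13 and Kcnn4, higher by 0.38, 0.42 and 0.40, lost it.

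**Figure D1:**
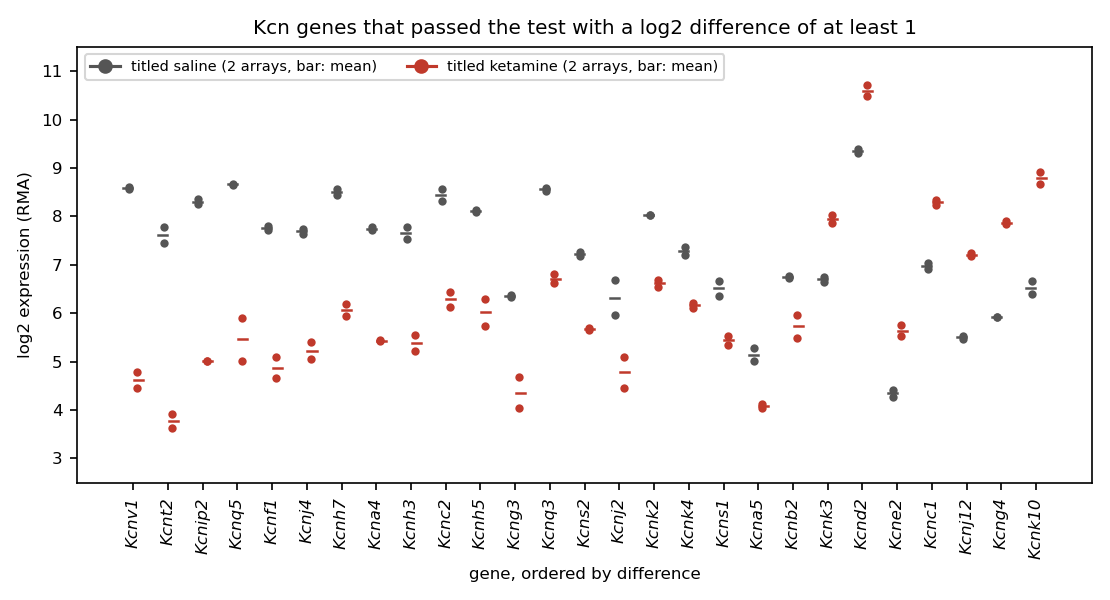
Level (log2 units) on each of the 4 arrays for the potassium channel genes with the largest differences, with points coloured by the group in the array title. The groups do not overlap for any gene shown, which follows from the choice by size of the difference. The widest gap between arrays titled ketamine is that of Kcnq5, at 5.01 and 5.91.

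Measured differences ran from -3.98 (Kcnv1) to 2.26 (Kcnk10). A measured difference of at least 1, a 2-fold change, was reached by 27 genes, all of them called, of which 7 were higher and 20 lower. Of all 21789 rows tested, 805 were called higher and 646 lower with a difference of that size. The 7 were the 2-pore channels Kcnk10 and Kcnk3, the silent subunit Kcng4, the inward rectifier Kcnj12, the Kv3 subunit Kcnc1, the Kv4 subunit Kcnd2 and the accessory subunit Kcne2. The 20 were led by the silent subunit Kcnv1, the sodium-activated channel Kcnt2, the Kv4 partner Kcnip2, the Kv7 subunit Kcnq5 and the silent subunit Kcnf1. The groups did not overlap for any of the 27. A difference of at least 1 fixes this, since no gap within a group exceeded 0.93 in any member.

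The calls depended on which array was left out. With titled saline array 1 left out, 19 genes were called higher and 24 lower, and with titled saline array 2 left out, 19 and 23. With either titled ketamine array left out no row of the whole table passed, although the sign of all 53 called genes stayed and the unadjusted p was under 0.05 for 21 genes above and 27 below when titled ketamine array 1 was dropped, and for 26 and 29 when array 2 was dropped. In those fits the spread within groups comes from the pair of titled saline arrays only, on which 916 of 21789 rows (4.20%) held exactly equal values, against 95 rows (0.436%) on the pair titled ketamine. Kcnd1, Kcnn3 and Kcnrg were among the 916.

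The promoters of the most changed genes are shown because the members moved in opposite directions and the reference gives sequence for the region where each transcript begins. Those printed belong to the 2 lower and the 2 higher called genes with the largest measured difference among genes with exactly 1 entry in the RefSeq promoter table (build GRCm38.p6), which spans 250 bases before the start to 50 bases after it. Capitals mark matches, on either strand, to the motifs searched, here the GC box GGGCGG and the E-box CAGCTG. Kcnt2 lies at chr1:140245468-140245767 on the plus strand, Kcnip2 at chr19:45816014-45816313 on the minus strand, Kcng4 at chr8:119635631-119635930 on the minus strand and Kcnj12 at chr11:61065554-61065853 on the plus strand.
Kcnt2: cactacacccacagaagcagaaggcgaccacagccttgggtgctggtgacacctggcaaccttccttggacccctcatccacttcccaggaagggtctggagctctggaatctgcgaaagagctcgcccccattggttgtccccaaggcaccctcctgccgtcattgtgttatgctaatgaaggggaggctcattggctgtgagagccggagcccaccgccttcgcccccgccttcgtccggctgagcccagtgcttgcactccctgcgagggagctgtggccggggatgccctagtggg
Kcnip2: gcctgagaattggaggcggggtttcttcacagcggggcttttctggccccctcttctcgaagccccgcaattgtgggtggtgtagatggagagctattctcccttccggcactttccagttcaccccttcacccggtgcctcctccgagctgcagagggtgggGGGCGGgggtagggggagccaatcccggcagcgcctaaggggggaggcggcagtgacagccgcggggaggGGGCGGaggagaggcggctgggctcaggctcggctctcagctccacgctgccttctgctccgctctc
Kcng4: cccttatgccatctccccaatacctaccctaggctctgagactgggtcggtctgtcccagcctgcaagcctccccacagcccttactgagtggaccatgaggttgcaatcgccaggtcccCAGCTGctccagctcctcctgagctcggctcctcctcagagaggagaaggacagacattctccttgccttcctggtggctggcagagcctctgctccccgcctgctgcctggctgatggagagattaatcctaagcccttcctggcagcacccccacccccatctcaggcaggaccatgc
Kcnj12: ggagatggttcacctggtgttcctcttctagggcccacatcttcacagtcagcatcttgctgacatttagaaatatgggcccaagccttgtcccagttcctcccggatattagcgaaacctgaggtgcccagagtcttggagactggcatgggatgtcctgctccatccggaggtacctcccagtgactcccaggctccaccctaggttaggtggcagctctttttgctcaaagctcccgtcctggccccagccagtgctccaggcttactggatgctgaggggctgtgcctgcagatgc

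The printed Kcnt2 and Kcnip2 promoters, of genes that were lower, hold 12 and 18 CpG dinucleotides in 300 bases, and those of Kcng4 and Kcnj12, of genes that were higher, hold 4 each. Kcnip2 has 2 GC boxes and Kcng4 has 1 E-box, and the other two have no match to a searched motif. Of 32851 promoters in all, 95 belonged to 70 potassium channel genes. The median CpG number was 12 over the 29 promoters of called lower genes, 7 over the 25 of called higher genes and 9 over all 95, beside 7 over all promoters. The median GC content was 62.7%, 57.0% and 58.0%, beside 52.7%.

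The TATA box TATAAA was present in 0% of the promoters of lower genes, 8.0% of those of higher genes and 5.26% of all potassium channel promoters, beside 13.6% of all promoters in the table. The GC box was present in 48.3%, 44.0% and 47.4%, beside 35.7%, and the E-box in 34.5%, 20.0% and 25.3%, beside 16.3%. The cAMP response element TGACGTCA was found in none of the 95, and in 1.79% of all promoters. Several promoters of 1 gene can overlap, so these shares describe the table's entries and were not tested.

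**Figure D2:**
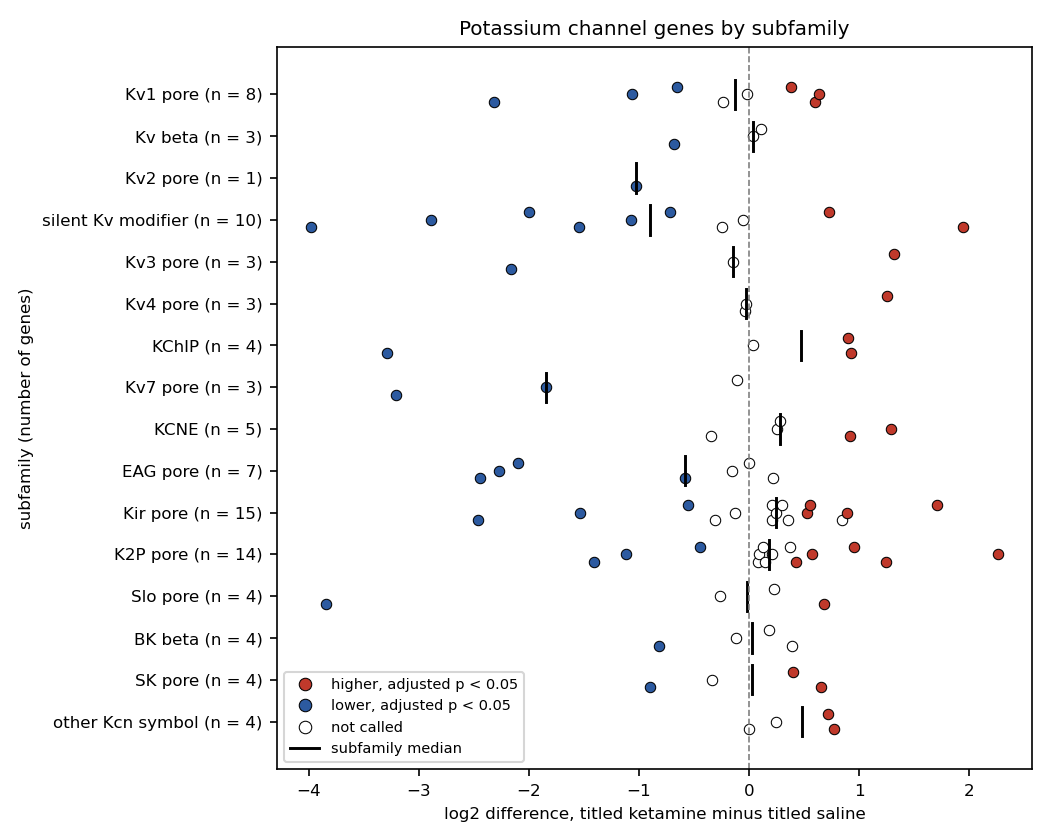
Difference between the groups (log2, titled ketamine minus titled saline) for each of the 92 potassium channel genes, arranged by subfamily and coloured by call. Several subfamilies hold calls in both directions. The EAG genes hold 4 lower calls and 0 higher ones, and the Kv7, Kv beta and BK beta genes also hold lower calls only. The Kv4 and KCNE genes, and those outside the subfamilies, hold higher calls only.

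The Kv1 subfamily (Kcna genes), whose channels open at low voltages and set firing threshold and the spread of action potentials along axons, had 3 of 8 genes higher and 3 lower. Kcna4, an A-type subunit that inactivates quickly, read 7.79, 7.71, 5.42 and 5.45, a difference of -2.31 (SE 0.105, adjusted p = 2.98e-05). Kcna5 read 5.27, 5.01, 4.04 and 4.12 (adjusted p = 0.00109), and since both arrays titled ketamine lay under the olfactory receptor level it was at least 1.55-fold lower (measured difference -1.06). Kcna3, a delayed rectifier known from neurons and also from lymphocytes and microglia, read 7.41, 7.63, 6.89 and 6.85, a difference of -0.65 (SE 0.12, adjusted p = 0.00652). For all 3 genes both arrays titled ketamine lay below both arrays titled saline.

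The axonal subunits Kcna1 and Kcna2, which sit beside the nodes of Ranvier and in the terminals of cerebellar basket cells, were on the other side. Kcna1 was higher by 0.60 (adjusted p = 0.00681) and Kcna2 by 0.38 (adjusted p = 0.0313). Kcna2 has a second row, which read 7.65, 7.23, 8.09 and 8.17 and was higher by 0.69 (adjusted p = 0.0137). Kcna7, with arrays titled saline at 4.05 and 4.21, both under the olfactory receptor level, was at least 1.37-fold higher (measured difference 0.64, adjusted p = 0.00629). Kcna6 and Kcna10 did not pass the test.

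Of the Kv beta subunits, cytosolic proteins that attach to Kv1 channels, Kcnab2 was lower and the other two did not pass the test. Kcnab2 read 10.23, 10.14, 9.26 and 9.75, a difference of -0.68 (SE 0.167, adjusted p = 0.0202). Its arrays titled ketamine lay 0.49 apart, and the difference was -0.43 without titled ketamine array 1 and -0.92 without titled ketamine array 2. Kcnab1 read 9.53, 9.48, 9.56 and 9.53 (difference 0.04, 95% interval -0.21 to 0.28), and Kcnab3 read 7.97, 7.90, 7.96 and 8.11 (difference 0.11, interval -0.16 to 0.37). The sign of both turned under quantile normalization and under median centring.

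The silent Kv subunits (Kcnf, Kcng, Kcns and Kcnv genes) form no channel of their own and join Kv2 subunits in mixed channels with altered gating. They held 6 lower and 2 higher calls among 10 genes, with a median difference of -0.90. Kcnv1 read 8.56, 8.62, 4.78 and 4.45, the largest measured difference of all members at -3.98 (SE 0.136, adjusted p = 1.68e-05). One array titled ketamine lay just under the olfactory receptor level, and the rank against Kcnt2, under it on both, is not known. Kcnf1 read 7.80, 7.72, 4.65 and 5.09, a difference of -2.89 (SE 0.156, adjusted p = 4.62e-05). Kcng3 read 6.38, 6.33, 4.03 and 4.68, a difference of -2.0 (SE 0.201, adjusted p = 0.000536). In Kcng3 the arrays titled ketamine lay 0.65 apart, still well below both arrays titled saline.

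Kcns2 and Kcns1 of the same class were also lower. Kcns2 read 7.17, 7.26, 5.69 and 5.66, a difference of -1.54 (SE 0.106, adjusted p = 0.000109), and Kcns1 read 6.36, 6.67, 5.53 and 5.35, a difference of -1.08 (SE 0.140, adjusted p = 0.00158). Kcng1 was lower by less, with a difference of -0.72 (adjusted p = 0.00294). Kcng4 went the other way and read 5.91, 5.93, 7.90 and 7.84, 3.86-fold higher (difference 1.95, SE 0.104, adjusted p = 4.62e-05). Within the Kcng genes the group thus held 2 lower genes, 1 higher gene and Kcng2, which did not pass the test (difference -0.24, interval -0.53 to 0.05). Kcnv2, with arrays titled saline at 3.89 and 4.17, both under the olfactory receptor level, was at least 1.36-fold higher (measured difference 0.72, adjusted p = 0.00571).

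Kcnb2, a Kv2 delayed rectifier with which silent subunits assemble, was the 1 Kv2 gene with a row. It read 6.78, 6.74, 5.49 and 5.97, a difference of -1.03 (SE 0.164, adjusted p = 0.00375). Both arrays titled ketamine were lower, and titled ketamine array 1 was the lower of them. The difference was -1.27 to -0.79 over the fits that left out 1 array.

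**Figure D3:**
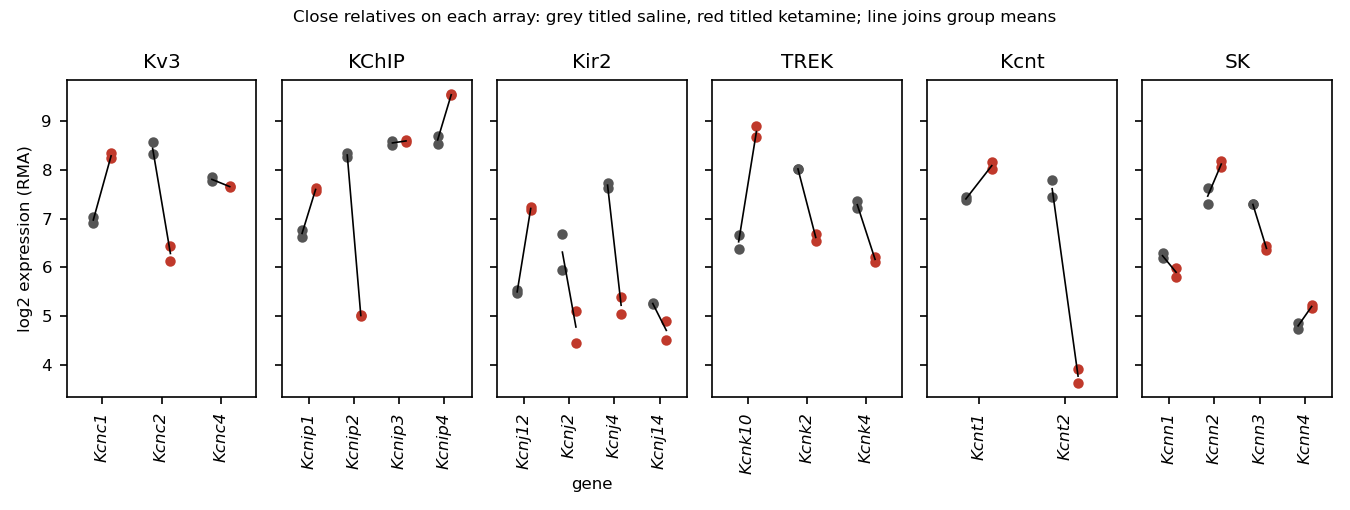
Level (log2 units) on each array for close relatives that were called in opposite directions, with points coloured by the group in the array title. Within each set at least 1 gene has both arrays titled ketamine above the arrays titled saline and at least 1 has both below.

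Kv3 channels (Kcnc genes) open and close fast and let neurons fire narrow spikes at high rates. The 3 genes gave 3 different outcomes. Kcnc1, known from cerebellar granule cells and fast-spiking neurons, read 7.04, 6.91, 8.24 and 8.34, a difference of 1.31 (SE 0.111, adjusted p = 0.000255). Kcnc2, known from fast-spiking interneurons of the cortex and from the thalamus, read 8.56, 8.33, 6.13 and 6.45, a difference of -2.16 (SE 0.147, adjusted p = 0.000109). Kcnc4 read 7.77, 7.85, 7.65 and 7.67, and its difference of -0.15 (interval -0.40 to 0.10) did not pass the test.

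Kv4 channels (Kcnd genes) carry the A-type current of dendrites, and the KChIP proteins (Kcnip genes) are calcium-binding partners that bring them to the membrane and shape their inactivation. Kcnd2, the main Kv4 subunit of cerebellar granule cells, read 9.38, 9.30, 10.71 and 10.49, a difference of 1.26 (SE 0.12, adjusted p = 0.000429). Kcnd3 read 7.01, 7.13, 7.04 and 7.02 (interval -0.29 to 0.22) and Kcnd1 read 5.45, 5.45, 5.29 and 5.55 (interval -0.32 to 0.26). Only Kcnd2 of the 3 separated the groups, with both arrays titled ketamine above both arrays titled saline.

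Among the KChIP partners, Kcnip2 was lower and Kcnip1 and Kcnip4 were higher. Kcnip2 read 8.35, 8.26, 5.02 and 5.02, 9.79-fold lower (difference -3.29, SE 0.106, adjusted p = 1.68e-05). Kcnip4 read 8.69, 8.54, 9.55 and 9.53, a difference of 0.93 (SE 0.111, adjusted p = 0.00111), and Kcnip1 read 6.77, 6.62, 7.56 and 7.64, a difference of 0.90 (SE 0.112, adjusted p = 0.00130). In each of the 3 genes the arrays of a group lay close together and the groups did not overlap. Kcnip3, also known as a transcriptional repressor under the name DREAM, did not pass the test (difference 0.04, interval -0.21 to 0.29). Of the other Kv4 partners, Dpp6 was higher by 0.35 (adjusted p = 0.0398) and Dpp10 did not pass the test (difference 0.05, adjusted p = 0.773).

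Kv7 channels (Kcnq genes) carry in neurons the M current, a slow current that is shut by muscarinic receptors and restrains repetitive firing. Both brain subunits measured were lower. Kcnq5 read 8.68, 8.65, 5.01 and 5.91, 9.21-fold lower (difference -3.20, SE 0.258, adjusted p = 0.000206). Kcnq3 read 8.60, 8.52, 6.62 and 6.80, a difference of -1.85 (SE 0.116, adjusted p = 7.60e-05). The gap of 0.89 between the Kcnq5 values on the arrays titled ketamine was the largest such gap of any member in that group, and its difference was -3.65 to -2.76 over the fits without 1 array. Kcnq1, known for its part in the heart and in epithelia, read 5.05, 5.33, 5.03 and 5.14 and did not pass the test (difference -0.11, interval -0.41 to 0.20).

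KCNE proteins are small membrane subunits that pair with Kv7 and other pores. Kcne2, which is abundant in choroid plexus epithelium, read 4.42, 4.28, 5.53 and 5.75, a difference of 1.29 (SE 0.125, adjusted p = 0.000437). Kcne1l read 5.17, 5.34, 6.09 and 6.25, a difference of 0.92 (SE 0.121, adjusted p = 0.00166). Both had arrays titled ketamine above those titled saline. Kcne3 read 3.24, 3.90, 3.19 and 3.26, at the level of dim rows, and did not pass the test (difference -0.35, adjusted p = 0.230). Its difference was -0.67 without titled saline array 1, which passed the test (adjusted p = 0.0282), and -0.018 without titled saline array 2. Kcne1 (0.26, adjusted p = 0.108) and Kcne4 (0.28, adjusted p = 0.0810) did not pass either. Markers of the choroid plexus moved with Kcne2. Of 9 measured, 8 were called higher, counting the potassium channel Kcnj13, with list means of 6.53 and 6.59 on the arrays titled saline and 7.18 and 7.46 on those titled ketamine. The part of these cells in the Kcne2 value was not tested.

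The EAG superfamily (Kcnh genes) comprises the EAG, ERG and ELK channels, voltage-gated channels that adjust excitability below the spike threshold. Of 7 genes 4 were lower and 0 higher, with a median difference of -0.58. Kcnh7, an ERG channel of neurons, read 8.57, 8.45, 5.95 and 6.18, a difference of -2.44 (SE 0.124, adjusted p = 3.96e-05). Kcnh3, an ELK channel of the forebrain, read 7.52, 7.79, 5.55 and 5.22, a difference of -2.27 (SE 0.152, adjusted p = 9.86e-05). Kcnh5, an EAG channel, read 8.13, 8.10, 5.74 and 6.30, a difference of -2.10 (SE 0.181, adjusted p = 0.000272).

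For all 3 genes both arrays titled ketamine lay far below both arrays titled saline. Kcnh4, an ELK channel also of the forebrain, was lower by less, with a difference of -0.58 (adjusted p = 0.00980). A relative of each of these 3 in its own branch did not pass the test. Kcnh1 (EAG) read 8.16, 8.31, 8.33 and 8.14 with a difference of 0.004 (adjusted p = 0.981). Kcnh2 (ERG) read 6.81, 7.20, 7.07 and 7.39 with a difference of 0.22 (interval -0.17 to 0.62), and Kcnh8 (ELK) had a difference of -0.15 (interval -0.52 to 0.22).

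The inward rectifiers (Kcnj genes) held 4 higher and 3 lower calls among 15 genes. The Kir2 group, strong rectifiers that fix the resting potential, accounted for all 3 lower calls and 1 higher call. Kcnj4 read 7.64, 7.74, 5.40 and 5.05, a difference of -2.46 (SE 0.140, adjusted p = 5.16e-05), and Kcnj2 read 6.68, 5.95, 4.46 and 5.10, a difference of -1.54 (SE 0.276, adjusted p = 0.00600). Kcnj12 read 5.47, 5.53, 7.25 and 7.17, 3.27-fold higher (difference 1.71, SE 0.106, adjusted p = 7.34e-05). The groups did not overlap for these genes, but the arrays of Kcnj2 lay 0.72 apart within the titled saline group and 0.64 within the titled ketamine group. Kcnj14 was lower by less, with a difference of -0.55 (adjusted p = 0.0256), which was -0.36 without titled ketamine array 2.

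The G protein-gated rectifiers (GIRK channels), which open when GABA-B or opioid receptors are activated, had 1 called gene of 4. Kcnj9 was higher by 0.53 (adjusted p = 0.0152), and Kcnj3 read 8.15, 8.23, 8.65 and 8.33 with a difference of 0.30 that did not pass the test (adjusted p = 0.135). Kcnj6 had a difference of -0.31 (adjusted p = 0.133) and Kcnj5 one of -0.13 (adjusted p = 0.397). The pores of ATP-sensitive channels, Kcnj8 and Kcnj11, had differences of 0.25 and 0.35 and did not pass the test, nor did their sulfonylurea receptor partners Abcc8 (0.36, adjusted p = 0.122) and Abcc9 (0.21, adjusted p = 0.175).

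Of the 5 rectifiers of glia and transporting epithelia, Kcnj10 and Kcnj13 were higher. Kcnj10, the channel by which astrocytes and oligodendrocytes take up potassium, read 8.31, 8.19, 8.67 and 8.95, a difference of 0.56 (SE 0.130, adjusted p = 0.0168). Kcnj13, a channel of the choroid plexus, read 7.14, 7.21, 7.87 and 8.27, a difference of 0.89 (SE 0.148, adjusted p = 0.00437). Kcnj16, which joins Kcnj10 in mixed channels, read 7.15, 6.22, 7.69 and 7.37, and its difference of 0.84 (SE 0.281, adjusted p = 0.0564, interval 0.18 to 1.5) just missed the threshold. Its titled saline arrays were 0.93 apart, the widest gap within a group of any member.

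Astrocyte markers moved partly with these glial channels. Of 10, 5 were called higher and 1 lower. List means were 8.40 and 8.25 on the arrays titled saline and 9.09 and 9.06 on those titled ketamine. The largest differences were those of Gdf10 (3.24) and Hopx (1.86). Slc1a2 was lower (-0.64), and 4 markers, Gfap (-0.11) among them, did not pass the test. Of 9 oligodendrocyte markers 1 was called higher and 0 lower (8.58 and 8.59 against 8.46 and 8.86). Their part in the Kcnj10 value was not tested.

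The K2P channels (Kcnk genes) have subunits with a pair of pore loops and carry the leak current at rest. They held 5 higher and 3 lower calls among 14 genes. The TREK group, opened by membrane stretch, heat and lipids, split. Kcnk10 read 6.67, 6.39, 8.91 and 8.67, the largest higher difference of all members at 2.26 (SE 0.142, adjusted p = 7.60e-05), 4.79-fold. Kcnk2 read 8.02, 8.02, 6.68 and 6.55, a difference of -1.40 (SE 0.109, adjusted p = 0.000176). Kcnk4 read 7.21, 7.36, 6.11 and 6.22, a difference of -1.12 (SE 0.114, adjusted p = 0.000567). The groups of all 3 genes were well apart.

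Kcnk3, an acid-sensitive TASK channel known from cerebellar granule cells and motor neurons, read 6.65, 6.75, 7.85 and 8.03, a difference of 1.24 (SE 0.116, adjusted p = 0.000387). Its relative Kcnk9, also a channel of granule cells, read 7.44, 7.53, 7.59 and 7.68 and did not pass the test (difference 0.15, interval -0.11 to 0.41). Kcnk1, a TWIK channel of astrocytes and neurons, was higher by 0.96 (adjusted p = 0.00278), and Kcnk6 of the same group was lower, with a difference of -0.45 (adjusted p = 0.0201). Both THIK genes were higher, Kcnk12 by 0.57 (adjusted p = 0.00731) and Kcnk13, a channel of microglia, by 0.42 (adjusted p = 0.0265). All 9 measured microglial markers were called lower, with list means of 7.07 and 7.05 on the arrays titled saline and 6.15 and 6.34 on those titled ketamine. The TALK genes Kcnk5 and Kcnk16 and the TRESK gene Kcnk18 did not pass the test.

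The Slo channels have a large cytosolic sensor for calcium or sodium. The sodium-activated pair moved apart. Kcnt2 (Slick) read 7.78, 7.45, 3.63 and 3.92 (measured difference -3.84, adjusted p = 2.26e-05), and since both arrays titled ketamine lay under the olfactory receptor level it was at least 8.61-fold lower. Kcnt1 (Slack) read 7.44, 7.38, 8.15 and 8.02, a difference of 0.68 (SE 0.110, adjusted p = 0.00390). Kcnma1, the pore of the large-conductance calcium-activated (BK) channel, read 9.13, 9.03, 8.98 and 8.64, and its difference of -0.27 (interval -0.60 to 0.06) did not pass the test. Its second row lay between 3.35 and 3.88 and did not pass either. Kcnu1, a channel of sperm, was dim on every array and did not pass the test.

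Of the 4 BK beta subunits, which set the calcium sensitivity and inactivation of BK channels, Kcnmb2 was lower. It read 5.57, 5.53, 4.72 and 4.74, a difference of -0.81 (SE 0.104, adjusted p = 0.00145). Kcnmb4, the beta subunit known from neurons, read 7.68, 7.96, 8.01 and 8.0 (difference 0.19, interval -0.11 to 0.48), and Kcnmb1 read 4.15, 4.23, 4.76 and 4.40 (difference 0.39, adjusted p = 0.0744, and 0.21 without titled ketamine array 1). Kcnmb3 did not pass the test. The leucine-rich proteins that act as BK gamma subunits differed in direction as well. Lrrc55 read 7.25, 7.19, 5.40 and 5.50, a difference of -1.77 (SE 0.108, adjusted p = 6.75e-05). Lrrc38 read 4.33, 4.72, 5.85 and 5.66, a difference of 1.23 (SE 0.155, adjusted p = 0.00136). Lrrc52, known from testis, had levels from 3.79 to 4.50 and was called higher (measured difference 0.58, adjusted p = 0.0108). Both arrays titled saline lay under the olfactory receptor level, and so did titled ketamine array 1 (4.48 against 4.56). No bound on the fold of Lrrc52 is therefore given. Lrrc26 did not pass the test (0.07, adjusted p = 0.791).

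The calcium-activated channels of small and intermediate conductance (Kcnn genes), which open after a spike through bound calmodulin, held 2 higher and 1 lower call among 4 genes. Kcnn3 read 7.29, 7.29, 6.35 and 6.43, a difference of -0.90 (SE 0.105, adjusted p = 0.00102). Kcnn2, the small-conductance channel of Purkinje cells, read 7.63, 7.30, 8.19 and 8.05, a difference of 0.66 (SE 0.140, adjusted p = 0.0118). Kcnn1 read 6.20, 6.29, 5.81 and 6.0 and missed the threshold (difference -0.34, adjusted p = 0.0639). Kcnn4, the intermediate-conductance channel of blood cells and microglia, read 4.74, 4.87, 5.23 and 5.17, a difference of 0.40 (adjusted p = 0.0307). Among the called genes it was, with Kcna2, the closest to the threshold, and just outside it were Kcnj16 and Kcnn1.

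Of the 4 genes outside the subfamilies, 2 were higher. Kcnrg, which encodes a soluble protein that restrains Kv channel assembly, read 4.08, 4.08, 4.91 and 4.80 (measured difference 0.78, adjusted p = 0.00210), at least 1.46-fold higher than the olfactory receptor level under which both arrays titled saline lay. Kcnmb4os2, named as a transcript of the strand opposite Kcnmb4, read 4.46, 4.73, 5.44 and 5.17, a difference of 0.72 (SE 0.145, adjusted p = 0.00952). The arrays titled ketamine lay above those titled saline for both. Kcnmb4os1 read 4.08, 4.40, 4.39 and 4.59 (difference 0.25, adjusted p = 0.225) and Kcnd3os read 6.84, 7.0, 6.87 and 6.96 (difference -0.004, adjusted p = 0.984). Signal of such a transcript and of its opposite gene may not be separable, since the probe positions were not used here.

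Of a list of 20 genes for proteins that bind or place potassium channels, 5 were called higher (25.0%) and 4 lower (20.0%), beside 23.4% and 9.71% of all rows, with a median difference of 0.13, as over all rows. Cntnap2, which anchors Kv1 channels beside the node, read 8.55, 8.43, 7.56 and 7.87, a difference of -0.78 (SE 0.134, adjusted p = 0.00513). Cntn2, its adhesion partner at the same place, read 8.06, 8.01, 8.65 and 8.65, a difference of 0.61 (SE 0.104, adjusted p = 0.00494). Dlg4, the scaffold PSD-95 that clusters Kv1 and Kir channels, read 10.37, 10.37, 9.61 and 9.66, a difference of -0.73 (SE 0.104, adjusted p = 0.00232). Cntnap2 and Dlg4 were thus below, and Cntn2 above, the titled saline arrays on both arrays titled ketamine. Dlg2, a scaffold of the same family, was lower with a difference of -0.40 (adjusted p = 0.0339), and Crbn, which binds BK channels, was higher by 0.49 (adjusted p = 0.0235). Lgi1, Adam22, Amigo1, Dlg1, Pex5l, Vapa and Vapb did not pass the test.

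Genes that lie next to each other on a chromosome were called in the same and in opposite directions. In the RefSeq gene order 10 pairs of potassium channel genes had 0 other protein-coding genes between them. Both genes were called in 3 pairs, in the same direction in 1 and in opposite directions in 2. Kcnj10 and Kcnj9 were both higher, by 0.56 and 0.53. Kcna1 was higher by 0.60 and its neighbour Kcna5 lower (measured difference -1.06), and Kcna2 was higher by 0.38 and its neighbour Kcna3 lower (difference -0.65). Of 4 pairs with 1 call, the widest was that of Kcnj2 (-1.54, called) and Kcnj16 (0.84, not called). Kcnip1 and Kcnmb1 overlap in that annotation, and of them Kcnip1 was called.

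**Figure D4:**
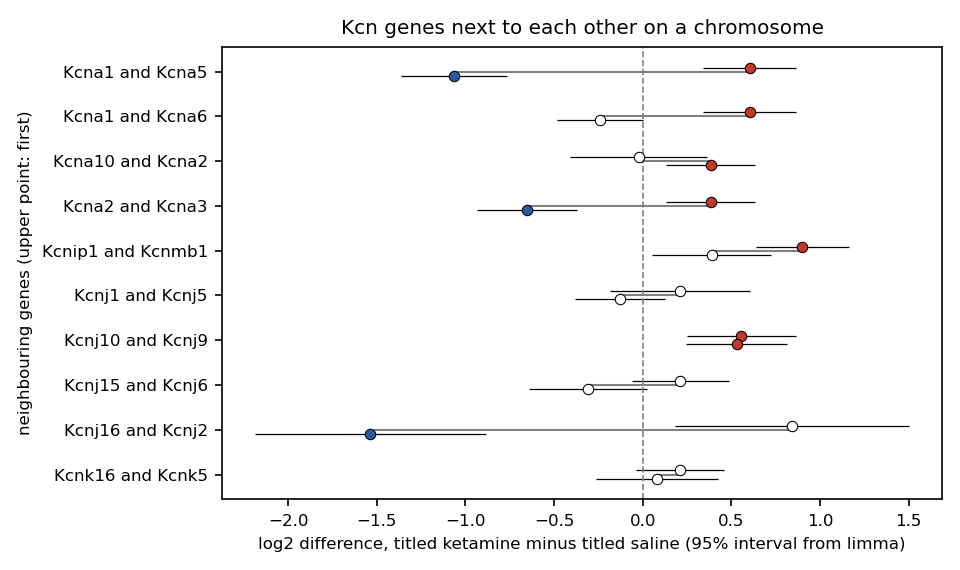
Difference between the groups (log2, titled ketamine minus titled saline) for both genes of the 10 pairs of adjacent potassium channel genes, joined by a line and marked by call. The points of Kcnj10 and Kcnj9 nearly coincide, and those of Kcnj16 and Kcnj2 are the farthest apart.

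Arrays of a group differed little for most members. The median gap between the arrays of a group was 0.116 (titled saline) and 0.135 (titled ketamine) over the 92 genes, beside 0.135 and 0.112 over all rows, and 0 genes had a gap over 1. Some members were dim. Under the olfactory receptor level on all arrays lay 5 genes, Kcne1, Kcne3, Kcnj1, Kcnk18 and Kcnu1, of which 0 were called.

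Of the genes called lower, Kcna5 and Kcnt2 lay under that level on both arrays titled ketamine, and Kcnv1, Kcng3 and Kcnj2 on 1 of them, where lower values cannot be told from dim signal. The measured differences of Kcna5 and Kcnt2 do not give the size of the change, and their order against genes with brighter values is not known. Of the genes called higher, Kcna7, Kcnrg and Kcnv2 lay under it on both arrays titled saline, so that only a bound is given for them too, and Kcne2 lay under it on 1. The remaining called genes were above it on all 4 arrays. Among the 39 genes without a call, 20 had groups that did not overlap, 13 with the arrays titled ketamine above and 7 below. Over all rows, called or not, 48.4% and 21.5% did not overlap in these directions. Groups that did not overlap were thus common over all rows as well.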

How the data were processed

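The authors hybridised RNA of 4 mice, each to 1 Affymetrix Mouse Gene ST array, and deposited log2 expression values, 1 per transcript cluster, made by RMA (background correction, normalization between arrays and a summary over probes) per the labels. The genome build, and the version of the software that made the values, were not named in the sources used here. Scanner output was not used. The methods name Expression Console and GeneSpring and give fold changes, with no test for the arrays. RMA compresses low values and removes part of any shift common to most genes.

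Rows with exactly 1 symbol in the platform annotation (21789 of 35556) were fitted in limma 3.58.1 under R 4.3.3 (lmFit, then eBayes without trend or robust option, no filter on dim rows), and p-values were adjusted by Benjamini-Hochberg over these rows. A further 1621 rows had several symbols and 12146 none. All 92 potassium channel genes matched the RefSeq table of GRCm38.p6 by gene number, with equal symbols, and that table gave gene order and promoters only. Genes without a row of 1 symbol were not analysed here.

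Channel genes were named with the value on each array where they passed at an adjusted p under 0.05 with a difference of at least 1, where they were among the up to 3 largest differences of a subfamily, or where the arrays of a group differed by over 1, which none did. Of the channel partners up to 6 and of each marker list up to 2 genes with the largest difference were named, and others only with their difference. The members, lists and rules were chosen with earlier results of these data known. Alternatives covered the fold, a filter on dim rows, rows with several symbols (added to the fit and adjustment only) and the mean of several rows. They also covered scaling, moderation, leaving out 1 array at a time and blocking on the replicate number. The number of arrays limits the precision.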

Additional observations from a re-analysis of the deposited data

How the results depend on the processing

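Signs of the 53 called potassium channel genes stayed under every alternative in which they were measured, and the calls depended on which array was left out. With 1 array left out, limma called 0 to 19 of the 92 genes higher and 0 to 24 lower, where 25 and 28 were called with all arrays. Both counts of 0 came from leaving out either titled ketamine array, where 0 rows of the table passed and 5974 and 6461 rows had an unadjusted p under 0.05. Without titled saline array 1 or array 2, 12 of the 53 calls were lost each time. Kcna2, Kcnab2, Kcnb2, Kcnj9, Kcnj10, Kcnj14, Kcnk6, Kcnk13 and Kcnn4 were lost in both cases, Kcnj2, Kcnj13 and Kcnmb4os2 without array 1 and Kcna1, Kcnh4 and Kcnn2 without array 2. Kcnj16 and Kcne3 gained a call without array 1, and Kcnk15 without array 2.

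The median difference of the members moved from 0.039 to -0.164 under quantile normalization and to -0.097 under median centring. With a 2-fold limit in place of 1.3-fold, 7 genes were higher and 20 lower, all of them called. Beside them stood 805 rows called higher and 646 called lower at that size, of 21789. Scaling turned the sign of Kcnab1 (-0.075 under quantile normalization, -0.099 under centring), Kcnab3 (-0.037 and -0.029) and Kcnmb4os1 (-0.048 under quantile normalization). Over the fits that left out 1 array, the difference of Kcnd3 ran from -0.099 to 0.023 and that of Kcnq1 from -0.246 to 0.031 (both positive without titled saline array 2), and that of Kcnd1 from -0.156 to 0.097 (positive without titled ketamine array 1). None of these 6 genes was called. Kcne3 was called under quantile normalization (difference -0.60, adjusted p = 0.0458), and Kcnn4 lost its call with a trend in the moderation (adjusted p = 0.0502).

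The replicate number in the titles was shared by samples whose deviations did not go together (r = 0.034). That correlation alone cannot show whether the number stands for a shared step, and the sources used here do not say. With the replicate block, limma called 28 genes higher and 29 lower, Kcnmb1 among the higher (adjusted p = 0.0367). Robust moderation gave 26 and 28, and the mean of several rows or a trend gave 25 and 28. Adding the rows with several symbols, for 23410 rows in all, also gave 25 and 28. Those rows entered the fit and the adjustment only, and no channel gene was read from them. With the filter on dim rows, 36 of 36 called genes that were still measured kept their call. The cause of these changes was not tested.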

Other observations

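In the marker lists set beside the channel genes, the genes with the largest differences were far apart between the groups. Gabra6, the GABA-A receptor subunit of cerebellar granule cells, read 6.73, 3.28, 11.65 and 11.60 on titled saline 1, titled saline 2, titled ketamine 1 and titled ketamine 2, and Cbln3 read 5.75, 4.52, 11.13 and 11.17. Ppp1r17 and Car8 of Purkinje cells read 4.94, 3.92, 10.08 and 9.91, and 7.81, 6.37, 11.53 and 11.25. In all 4 of these genes titled saline array 2 was the lowest, by over 1 below titled saline array 1. Ddn and Tbr1 of forebrain projection neurons read 10.41, 10.44, 4.12 and 4.68, and 8.37, 8.44, 3.73 and 3.69. Tac1 and Rgs9 of the striatum read 9.41, 9.13, 4.88 and 6.69, and 8.56, 8.58, 6.06 and 5.65.

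Glial and other lists differed less. Gdf10 and Hopx of the astrocyte list read 5.78, 5.71, 9.04 and 8.92, and 6.28, 6.06, 8.14 and 7.93. Both are also known from glia of the cerebellum. C1qb and Cx3cr1 of microglia read 7.37, 7.29, 6.25 and 6.36, and 7.72, 7.81, 6.73 and 6.81. Slc4a5 and Otx2 of the choroid plexus read 4.91, 4.70, 5.93 and 6.14, and 5.79, 5.91, 6.94 and 6.92. Ugt8a of oligodendrocytes was higher by 0.57 (adjusted p = 0.0207), and Opalin had a difference of -0.37 (adjusted p = 0.415). Of 10 markers of endothelium and pericytes 0 were called by limma, and the list means were 6.95, 6.91, 7.08 and 7.18. The largest differences there were 0.46 for Slco1a4 (adjusted p = 0.197) and 0.39 for Tek (adjusted p = 0.111).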
